A study of Homo sapiens with 9 samples.

Results

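The cells described here were pluripotency-factor-positive cells of human extra-embryoids (hEEs) in which the transcription factor gene TFAP2A was detected. In these cells no transcript was detected of 4 further amnion genes, ISL1, GATA3, DLX5 and GABRP, called later amnion genes here. The cells were picked by their own unique molecular identifier (UMI) counts. A cell had at least 5 UMIs of POU5F1, at least 1 of SOX2, at most 2 of FN1, at least 2 of TFAP2A, and none of ISL1, GATA3, DLX5 or GABRP. Of 22426 cells in the 2 libraries, 19248 passed the filter on cells (3430 to 27500 UMIs and at most 10% mitochondrial UMIs), 8770 met the POU5F1, SOX2 and FN1 conditions, and 306 were TFAP2A-positive cells in this sense, 56 at D4 and 250 at D6. The cells they are compared with met the same POU5F1, SOX2 and FN1 conditions on the same day but had no UMI of TFAP2A, which gave 3392 cells at D4 and 4362 at D6 (TFAP2A 0 cells).

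The hEEs were three-dimensional aggregates grown in AggreWell plates from wild-type ESI017, a human embryonic stem cell line that had been kept in human expanded potential medium with a WNT inhibitor and a ROCK inhibitor on feeder cells. They formed in a spontaneous differentiation medium, at first with the ROCK inhibitor Y27632, and were in mIVC2, a modified in vitro culture medium, from D3 on, so both samples were taken in mIVC2. Aggregates with an inner and an outer compartment were taken on D4 and D6. They came from cultures of different clones and passages, and all wells of a day were pooled before dissociation into 1 library of transcript 3′ ends for each day. A day is therefore 1 sample, the day and the library cannot be told apart, and no test between groups was possible. Intervals in brackets are 95% intervals that cover counting error only, and cells of 1 library are not replicates. The libraries held 151712246 UMIs in 10943 cells at D4 and 150320228 UMIs in 11483 cells at D6. They shared 40 cell barcodes, of which 27 passed the filter on cells and 0 were held by TFAP2A-positive cells of both days.

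Amnion is the thin epithelium that encloses the embryo, and in primates it forms early from the epiblast, the pluripotent layer that also gives rise to the embryo itself. TFAP2A, an AP-2 transcription factor, is expressed in amnion and in surface ectoderm, where it is used as a marker together with factors such as ISL1 and GATA3. Bone morphogenetic protein (BMP) signalling, which acts through SMAD1, SMAD5 and SMAD9, is a known inducer of this fate, and the ID genes, which code for inhibitors of basic helix-loop-helix factors, are its best known direct targets.

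TFAP2A-positive cells made up 0.612% [0.463, 0.794] of filtered cells at D4 and 2.48% [2.18, 2.80] at D6 (exact binomial intervals). As a share of cells that met the POU5F1, SOX2 and FN1 conditions they were 1.51% [1.14, 1.95] and 4.95% [4.37, 5.58]. Most of them stood near the threshold: the median was 2 TFAP2A UMIs on both days, 14 cells at D4 and 120 cells at D6 had more, and the highest counts were 5 and 13. Of all filtered cells with at least 2 TFAP2A UMIs, 89 at D4 and 434 at D6, another 25 and 100 met the same conditions but had a UMI of a later amnion gene (late-gene cells), and 8 and 84 did not meet the POU5F1, SOX2 and FN1 conditions. Of those 84 cells of D6, 42 had no SOX2 UMI and 52 had too much FN1. A later amnion gene was found in 30.9% [21.1, 42.1] at D4 and 28.6% [23.9, 33.6] at D6 of the cells with at least 2 TFAP2A UMIs that met the conditions, beside 10.2% [9.17, 11.2] and 5.82% [5.15, 6.56] of TFAP2A 0 cells. GATA3 was found in 24 of the 25 late-gene cells at D4 and 77 of the 100 at D6.

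TFAP2A transcripts were rare in a cell class that should lack them. Among cells with at least 10 UMIs of FN1 and 0 of SOX2 (FN1-high cells), which had the hypoblast genes APOA1 and GATA6 at high levels, a TFAP2A UMI was found in 0.541% [0.260, 0.993] of 1847 cells at D4 and in 0.964% [0.563, 1.54] of 1763 cells at D6. At least 2 UMIs were found in 0 of 1847 cells at D4, which allows a share of up to 0.162% at a limit of 3 cells and of 0.1995% by the exact binomial interval, and in 4 cells at D6, or 0.227% [0.0619, 0.580]. Median depth in these FN1-high cells was 12752 and 12114 UMIs. TFAP2A-positive cells had median depths of 14550.5 and 13907.5 UMIs, close to the 15168.5 and 14298 of TFAP2A 0 cells. Levels are given in CPM, the UMIs of a gene summed over the cells of a group for each 1000000 UMIs of the group. GATA3, unlike TFAP2A, was abundant in FN1-high cells, at 241 and 234 CPM, and the part of RNA from such cells in the GATA3 UMIs of late-gene cells was not tested. A cell with 0 TFAP2A UMIs is not shown to lack the transcript at this depth. The same holds for a cell with 0 UMIs of the later amnion genes.

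POU5F1 and SOX2, for which the rule set the same lower limits in both groups, stood at like levels. POU5F1 was at 1144 CPM in TFAP2A-positive cells and 1175 CPM in TFAP2A 0 cells at D4, and at 1338 and 1349 CPM at D6. SOX2 was at 271 and 278 CPM at D4 and at 281 and 296 CPM at D6. TFAP2A itself was at 146 CPM at D4 and 220 CPM at D6 in the cells chosen for it. These values chose the cells and support nothing further.

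Of the other markers proposed for these cells, PCAT14 and ID1 differed clearly from TFAP2A 0 cells and CLDN10 did so little. PCAT14, a long noncoding RNA, was at 138 CPM [115, 165] in TFAP2A-positive cells and 30.1 CPM in TFAP2A 0 cells at D4, and at 291 CPM [273, 309] and 34.5 CPM at D6. The log2 ratios were 2.20 [1.92, 2.46] and 3.07 [2.97, 3.18]. PCAT14 had a UMI in 67.9% of TFAP2A-positive cells at D4 and 84.8% at D6, beside 21.4% and 21.8% of TFAP2A 0 cells, and in 30.4% and 48.4% beside 7.67% and 8.87% when every cell was thinned to 3430 UMIs. It lies in sequence related to an endogenous retrovirus family with near-identical copies, so reads may be divided among copies and its level is uncertain.

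CLDN10, which codes for a claudin of tight junctions, was at 75.9 CPM and 53.7 CPM at D4 and at 86.8 CPM and 59.8 CPM at D6, with log2 ratios of 0.51 [0.13, 0.85] and 0.54 [0.37, 0.70]. At D6, 1 TFAP2A-positive cell held 58 of the 311 CLDN10 UMIs, and without that cell the log2 ratio was 0.25 [0.05, 0.43]. The median over cells was 54.0 CPM beside 53.0 CPM in TFAP2A 0 cells. CLDN10 at D6 thus did not mark the typical cell, and it had a UMI in 52.4% of TFAP2A-positive cells and 55.7% of TFAP2A 0 cells. Some marker genes of established amnion were not detected. VTCN1, a surface protein gene used as an amnion marker, and TFAP2B had 0 UMIs on both days, which is under 3.40 CPM at D4 and 0.837 CPM at D6 at a limit of 3 UMIs over the group. Of the 20 genes in a list of amnion and non-neural ectoderm factors and keratins that the rule did not use, 10 were at 0 at D4 and 6 at D6. The list summed to 1259 CPM and 1428 CPM at D4 and to 1342 CPM and 1193 CPM at D6, with log2 ratios of -0.18 [-0.27, -0.10] and 0.17 [0.13, 0.21], and 3 keratins made up nearly all of it. The cells are called TFAP2A-positive cells here.

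Several BMP target genes were at a higher level in TFAP2A-positive cells, with all 4 ID genes above TFAP2A 0 cells on both days. ID1 was at 1950 CPM [1859, 2044] at D4, beside 1010 CPM in TFAP2A 0 cells, and at 2431 CPM [2380, 2483] at D6, beside 868 CPM. The log2 ratios of ID1 were 0.95 [0.88, 1.02] and 1.49 [1.45, 1.52]. ID4 was at 159 CPM and 67.8 CPM at D4 and at 178 CPM and 54.6 CPM at D6, with log2 ratios of 1.23 [0.97, 1.47] and 1.71 [1.58, 1.83]. ID4 passed a ratio of 2 on both days, and ID1 did so at D6, but ID4 was at a log2 ratio of 0.99 at D4 without the LEFTY and TAGLN cells described with the lower genes. ID3 had log2 ratios of 0.62 [0.54, 0.70] at D4 and 1.08 [1.04, 1.12] at D6, and ID2 of 0.67 [0.40, 0.92] and 0.91 [0.78, 1.04]. BAMBI, a decoy receptor that dampens BMP signalling and is itself a target of it, was at 94.0 CPM and 61.0 CPM at D4 and at 143 CPM and 48.3 CPM at D6, with log2 ratios of 0.63 [0.29, 0.94] and 1.56 [1.42, 1.70]. SMAD7, an inhibitory SMAD, was at 41.9 CPM and 44.7 CPM at D4, where the interval of its log2 ratio spanned 0, and at 63.6 CPM and 46.9 CPM at D6, with a log2 ratio of 0.44 [0.24, 0.63].

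A gene was measured when it reached 20 CPM over all cells that met the POU5F1, SOX2 and FN1 conditions on that day, and a log2 ratio of at least 1 or at most -1 counted as past the fold. At D4, 8 of 5943 measured genes, or 0.135%, were past the fold on the high side, and 47, or 0.791%, on the low side. At D6 the numbers were 14 of 6043, or 0.232%, and 21, or 0.348%. The filter was on all gate cells, so some of these genes reached it while under it in the group where they were low, and these had to differ. On the high side these were 0 of 8 genes at D4 and 3 of 14 at D6 (FAM20A, SELENOP and SERPINB9), which were under 20 CPM in TFAP2A 0 cells, and on the low side 37 of 47 and 11 of 21 were under 20 CPM in TFAP2A-positive cells. These low-side genes include LINC00836, HESX1, RND3 and AC027288.1 on both days. They also include LEFTY1, LEFTY2, CAV1, CST1, COL1A1, CLDN3 and APOA1 at D4, and DUSP6 and OTX2 at D6. Of the 15 BMP-SMAD target genes in the list that the rule did not use, 6 were measured on each day. At D4, 1 of the 6 was past the fold on the high side and the median log2 ratio was 0.65, beside 0.0021 for all measured genes. At D6, 4 of the 6 were past the fold, namely ID1, ID3, ID4 and BAMBI, and the median was 1.28, beside 0.0052. No measured gene of the list was past the fold on the low side. The rest of the list was below the filter. Among these, MSX2, a homeobox gene induced by BMP, was at 38.8 CPM [32.6, 45.8] from 139 UMIs at D6, beside 6.31 CPM in TFAP2A 0 cells, and it was at 14.7 CPM and 3.57 CPM at D4. GATA2, a GATA factor of amnion and trophoblast, was at 7.93 CPM from 7 UMIs and 2.09 CPM at D4 and at 7.81 CPM from 28 UMIs and 1.08 CPM at D6.

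ID1, ID3, ID4 and BAMBI were past the fold at D6, and the stretches upstream of ID1, ID3 and BAMBI are given. ID1 had no motif match, and ID3 and BAMBI had 1 kind of match each. The window of ID4, which like that of ID1 had no match, is not printed. Each sequence is the window of 250 bases before the RefSeq start on GRCh38.p14, read 5′ to 3′ on the strand of the gene. Capitals mark matches to GGCGCC, the core of a GC-rich SMAD element, or to GCCNNNGGC, the AP-2 consensus, in either direction.
ID1 (chr20:31605039-31605288, + strand): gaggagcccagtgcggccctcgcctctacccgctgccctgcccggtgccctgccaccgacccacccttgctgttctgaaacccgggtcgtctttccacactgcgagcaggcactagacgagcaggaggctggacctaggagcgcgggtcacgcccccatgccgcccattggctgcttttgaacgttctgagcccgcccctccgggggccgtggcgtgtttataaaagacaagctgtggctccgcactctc
ID3 (chr1:23559502-23559751, - strand): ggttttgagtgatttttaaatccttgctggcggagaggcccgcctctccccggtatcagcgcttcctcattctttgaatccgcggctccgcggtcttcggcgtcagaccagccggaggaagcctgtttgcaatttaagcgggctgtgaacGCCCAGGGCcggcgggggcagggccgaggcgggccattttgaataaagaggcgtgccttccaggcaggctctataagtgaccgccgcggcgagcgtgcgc
BAMBI (chr10:28677271-28677520, + strand): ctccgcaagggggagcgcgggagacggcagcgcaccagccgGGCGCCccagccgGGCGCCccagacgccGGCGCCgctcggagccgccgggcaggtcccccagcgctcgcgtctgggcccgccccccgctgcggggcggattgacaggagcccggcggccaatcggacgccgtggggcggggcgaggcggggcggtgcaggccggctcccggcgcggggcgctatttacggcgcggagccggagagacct
ID1 held neither motif in this window, ID3 held GCCNNNGGC 1 time and BAMBI held GGCGCC 3 times, and ID2 and ID4 held neither. Of all 35116 windows in the table, 16.4% held GGCGCC, 19.8% held GCCNNNGGC and 6.32% held both, and matches of the 2 motifs may overlap. Windows were counted for 14 of the 16 genes of the whole BMP-SMAD target list. Windows on the chromosome of HEY1, a gene of that list, were left out of this count, but not out of the 35116 windows. Among the 14 genes, 3 had a GGCGCC match and 6 a GCCNNNGGC match in any of their windows. Since some genes have several windows, these counts cannot be set against the shares of single windows. These matches describe letters in a window, not binding.

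The ID genes were also high cell by cell, and not through a few cells. Summed over ID1, ID2, ID3 and ID4, the median TFAP2A-positive cell had 3572 CPM at D4, between 2402 and 7300 CPM, beside a median of 2109 CPM in TFAP2A 0 cells. At D6 the median was 4020 CPM, between 998 and 10657 CPM, beside 1366 CPM. All 56 TFAP2A-positive cells of D4 and 246 of the 250 of D6 were above the median of TFAP2A 0 cells. The groups overlapped all the same, since 14 of 56 cells at D4 and 130 of 250 cells at D6 were above the 95th percentile of TFAP2A 0 cells. Cells with 1 TFAP2A UMI and no later amnion gene lay between, with medians of 3241 and 3145 CPM.

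**Figure D1:**
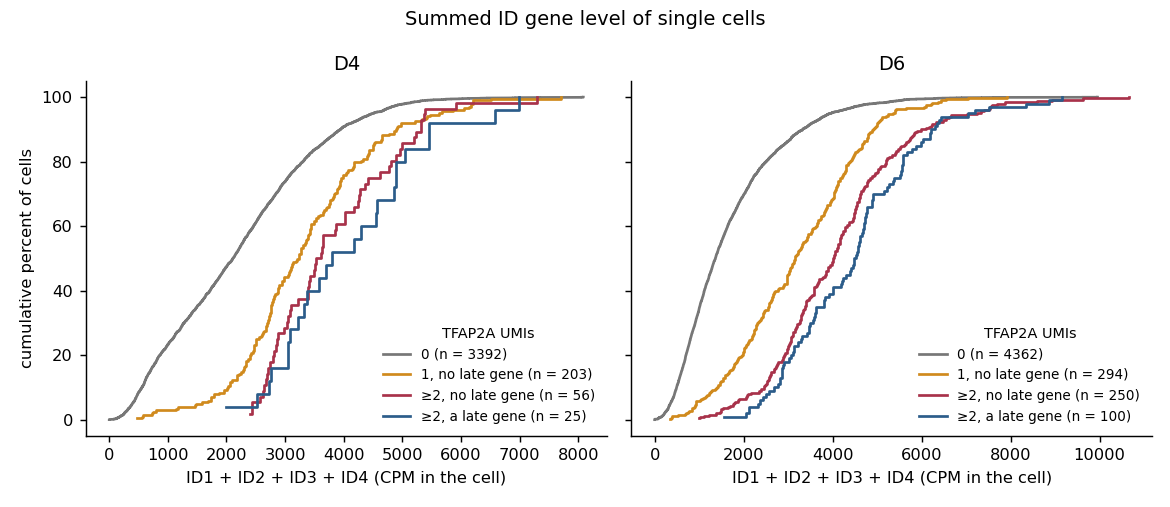
Cumulative percent of cells (vertical axis) against the summed level of ID1 to ID4 in each cell in CPM (horizontal axis), at D4 and D6, for cells that met the POU5F1, SOX2 and FN1 conditions, split by TFAP2A UMIs and later amnion genes. The curve of TFAP2A-positive cells lies to the right of that of TFAP2A 0 cells on both days, with medians of 3572 against 2109 CPM at D4 and 4020 against 1366 CPM at D6.

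Upstream of the targets, BMP ligands had few UMIs on both days, and BMP4 and BMP7 were higher in TFAP2A-positive cells at D6. None of the 7 ligands reached the filter. BMP4 was at 18.97 CPM from 68 UMIs in TFAP2A-positive cells of D6, beside 7.20 CPM in TFAP2A 0 cells, with a log2 ratio of 1.41 [1.01, 1.77], and at 5.66 CPM from 5 UMIs and 3.95 CPM at D4. BMP7 was at 30.1 CPM and 14.4 CPM at D6 and at 9.06 CPM and 8.73 CPM at D4. Receptors and SMAD transducers differed less. The 5 measured at D4 had a median log2 ratio of 0.10 and the 4 measured at D6 a median of 0.18, and none was past the fold. The receptor gene BMPR1A had a log2 ratio of 0.40 [0.20, 0.58] at D6, and the transducer gene SMAD5 of 0.16 [-0.04, 0.34]. Among BMP inhibitors, FST, which codes for the activin and BMP binder follistatin, was measured beside BAMBI and had log2 ratios of 0.15 [-0.26, 0.51] and 0.58 [0.39, 0.75]. The medians of these 2 measured inhibitors were 0.39 and 1.07.

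Factors that act with TFAP2A in amnion and surface ectoderm were at low levels or not detected. TFAP2C, a second AP-2 gene also used in germ cells and trophoblast, was at 18.1 CPM from 16 UMIs at D4, beside 7.497 CPM in TFAP2A 0 cells, and at 26.2 CPM from 94 UMIs at D6, beside 7.69 CPM. Its log2 ratios were 1.32 [0.45, 1.99] and 1.78 [1.44, 2.09]. DLX3 and DLX6, distal-less homeobox genes, had 0 UMIs at D4 and 6 and 7 UMIs at D6. HAND1 had 1 and 13 UMIs and TBX3 had 1 and 5. Keratins of simple epithelia, by contrast, were abundant in both groups and differed little. They were higher still in FN1-high cells, with KRT18 at 2945 and 3438 CPM there. KRT18 had log2 ratios of -0.42 [-0.55, -0.29] and -0.16 [-0.23, -0.09], and KRT19 of 0.22 [0.04, 0.39] and 0.51 [0.42, 0.59]. KRT7, a keratin of amnion and trophoblast, had 5 UMIs at D4 and 27 at D6.

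Of the amnion gene lists from earlier primate work that the study applied to these samples, few genes reached the filter. As they were applied to these samples before, they are not independent evidence of a direction. The late-stage amnion list holds TFAP2A, ISL1, DLX5 and GABRP, which the rule used, and 5 further genes. These 5 summed to 177 CPM and 158 CPM at D4, with a log2 ratio of 0.16 [-0.08, 0.39], and to 188 CPM and 135 CPM at D6, with 0.48 [0.37, 0.60]. Only GSTO1 was measured, with log2 ratios of 0.02 and -0.04, and the higher sum at D6 came from genes under the filter. BMP4 and MSX2 are given above, and PRKD1, a protein kinase D gene, was at 17.3 CPM and 5.597 CPM at D6 and at 6.79 CPM from 6 UMIs and 4.08 CPM at D4. The early-stage amnion list had 2 measured genes, the fatty acid synthase gene FASN and the sterol gene MVD, and medians of -0.22 at D4 and -0.28 at D6. The amnion progression list had 3 measured genes and medians of -0.36 and -0.05, with the collagen gene COL1A1 past the fold on the low side at D4 (-1.35).

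Genes on the high side, BMP targets included, were mostly higher on both days. Of the 8 genes past the fold on the high side at D4, all 8 had a log2 ratio above 0 at D6, and of the 10 past it at D6 and measured on both days, all 10 had a ratio above 0 at D4. Over the 5776 genes measured on both days, 51.1% were above 0 at D6 and 50.5% at D4. Past the fold on both days were 4 genes, PCAT14, ID4, C16orf89 and SOCS2. Without the LEFTY and TAGLN cells described with the lower genes, ID4, SOCS2 and C16orf89 were at 0.99, 0.95 and 0.90 at D4, under the fold, so that PCAT14 alone of the 4 kept its call there. SOCS2, a feedback inhibitor of cytokine receptors, was at 97.4 CPM and 45.9 CPM at D4 and at 68.6 CPM and 28.3 CPM at D6. C16orf89 was at 103 CPM and 42.5 CPM at D4 and at 66.1 CPM and 29.6 CPM at D6, and unlike PCAT14 it was nearly absent from FN1-high cells, at 1.67 and 0.881 CPM.

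Next to these were SALL1 and SALL3, zinc finger genes of the spalt family, and CCND1, the gene of cyclin D1. SALL3 had log2 ratios of 1.21 [0.73, 1.62] and 0.92 [0.68, 1.14], SALL1 of 1.18 [0.74, 1.56] and 0.65 [0.42, 0.87], and CCND1 of 0.60 [0.42, 0.76] and 0.70 [0.62, 0.79]. SALL1 and SALL3 were past the fold at D4 alone, and so was SSBP2, which codes for a cofactor of LIM-domain transcription complexes, with 1.23 [0.73, 1.66] at D4 and 0.37 [0.05, 0.65] at D6. Whether the ratios differed between days was not tested.

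At D6 the high side also held FAM20A, PTCH1, TMEM54 and COCH. FAM20A, a pseudokinase gene of the secretory pathway, was at 76.7 CPM [67.9, 86.3] beside 17.8 CPM in TFAP2A 0 cells, with a log2 ratio of 2.11 [1.91, 2.30]. It reached the filter of 20 CPM only through the cells in which it was high. At D4 it was under the filter, at 43.0 CPM and 10.7 CPM. PTCH1, the hedgehog receptor and a target of that pathway, was at 87.0 CPM and 32.5 CPM at D6, with a log2 ratio of 1.42 [1.25, 1.59], and at 34.0 CPM and 21.0 CPM at D4. TMEM54 had a log2 ratio of 1.32 [1.12, 1.501] at D6, and COCH, which codes for an extracellular matrix protein, of 1.22 [1.02, 1.42].

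**Figure D2:**
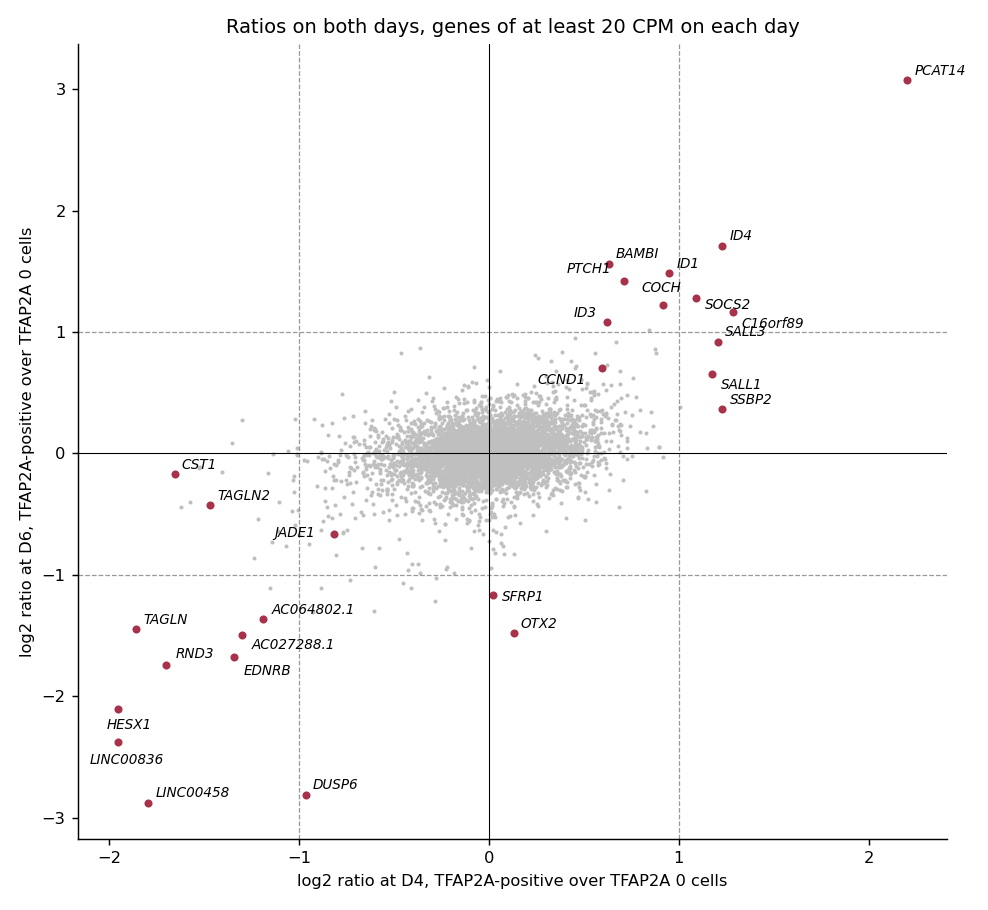
Log2 ratio of TFAP2A-positive over TFAP2A 0 cells at D6 (vertical axis) against that at D4 (horizontal axis) for genes of at least 20 CPM on each day, with dashed lines at a log2 ratio of 1 and -1. Of 5776 genes, 4 lie past the fold on the high side and 9 on the low side on both days (PCAT14 and ID4 at the upper right, LINC00458 at the lower left), and LEFTY1 and LEFTY2, which were under the filter at D6, are not drawn.

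On the low side, 2 long noncoding RNAs had large ratios on both days. LINC00458, a long noncoding RNA of pluripotent cells, was at 247 CPM [215, 282] in TFAP2A-positive cells and 858 CPM in TFAP2A 0 cells at D4, and at 78.9 CPM [70.0, 88.7] and 581 CPM at D6, with log2 ratios of -1.79 [-1.995, -1.605] and -2.88 [-3.05, -2.71]. LINC00836 had log2 ratios of -1.95 [-2.88, -1.25] and -2.38 [-2.98, -1.88]. LINC00458 was not restricted to cells with POU5F1 and SOX2, as it was at 1236 CPM and 1771 CPM in FN1-high cells. The unnamed transcripts AC027288.1 and AC064802.1 were lower too, with log2 ratios of -1.30 and -1.19 at D4 and -1.49 and -1.36 at D6. LINC00836 and AC027288.1 were under 20 CPM in TFAP2A-positive cells on both days, so they reached the filter only through other cells. Reads of noncoding genes can come from overlapping genes, which was not tested. The list of 11 epiblast long noncoding RNAs holds none of these. Of it, 6 genes were measured at D4 and 8 at D6, with medians of -0.49 and -0.30, and its only gene past the fold was PCAT14, on the high side. ESRG, another pluripotency-linked transcript, had log2 ratios of -0.76 [-0.95, -0.58] and -0.36 [-0.43, -0.29].

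HESX1, EDNRB, RND3 and DUSP6 were also lower on both days. HESX1 and RND3 on both days, and DUSP6 at D6, were under 20 CPM in TFAP2A-positive cells. They reached the filter there only through other cells. HESX1, a homeobox repressor of the epiblast and the anterior neural plate, was at 9.06 CPM from 8 UMIs and 37.3 CPM at D4 and at 6.14 CPM from 22 UMIs and 27.0 CPM at D6. EDNRB, the endothelin receptor B gene, was at 64.5 CPM and 165 CPM at D4 and at 44.9 CPM and 144 CPM at D6, with log2 ratios of -1.34 [-1.76, -0.98] and -1.68 [-1.91, -1.46]. RND3 had log2 ratios of -1.70 [-3.11, -0.75] and -1.74 [-2.39, -1.21]. JADE1, which codes for a subunit of a histone acetyltransferase complex, differed less, with -0.82 [-1.14, -0.52] and -0.66 [-0.81, -0.52].

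DUSP6, the phosphatase that limits ERK and a readout of FGF-ERK signalling, was at 47.6 CPM [34.3, 64.3] and 93.8 CPM at D4 and at 8.93 CPM [6.11, 12.6] and 63.7 CPM at D6. Its log2 ratios were -0.96 [-1.45, -0.54] and -2.81 [-3.38, -2.34], and a UMI of it was found in 33.9% and 10.0% of TFAP2A-positive cells, beside 62.4% and 43.7% of TFAP2A 0 cells. Of 13 FGF-ERK targets in the list, 9 were measured on each day, of which 8 were lower at D4 and 7 at D6, with medians of -0.42 and -0.28. Only 1 was past the fold on each day, IER3 at D4 (-1.07 [-1.60, -0.62]) and DUSP6 at D6. ETV4, an ETS factor gene of the pathway, had -0.24 [-0.70, 0.16] and -0.28 [-0.53, -0.04], and the immediate early gene EGR1 -0.09 [-0.51, 0.27] and 0.06 [-0.08, 0.19].

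The NODAL antagonists LEFTY1 and LEFTY2 were nearly absent from TFAP2A-positive cells at D4. Each had 1 UMI there, or 1.13 CPM, beside 114 CPM of LEFTY1 and 40.8 CPM of LEFTY2 in TFAP2A 0 cells, and the log2 ratios were -6.07 [-11.96, -4.18] and -4.59 [-10.48, -2.69]. At D6 both were under the filter, with 9 and 2 UMIs in TFAP2A-positive cells and 10.5 and 2.79 CPM in TFAP2A 0 cells. TAGLN, an actin-binding protein gene, was at 64.5 CPM and 236 CPM at D4 and at 25.1 CPM and 68.8 CPM at D6. CAV1, which codes for caveolin 1, TAGLN2 and the cystatin gene CST1 had log2 ratios of -2.01 [-3.31, -1.11], -1.47 [-2.001, -1.015] and -1.66 [-2.58, -0.96] at D4, and TAGLN2 and CST1 were at -0.43 [-0.65, -0.21] and -0.17 [-0.40, 0.04] at D6. At D4, LEFTY1, LEFTY2, CAV1 and CST1 were under 20 CPM in TFAP2A-positive cells and reached the filter only through other cells.

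This low side was compared again without cells of 1 kind, a choice made after the values were seen. Cells with a LEFTY1 or LEFTY2 UMI or at least 5 UMIs of TAGLN made up 38.7% of TFAP2A 0 cells and 10.7% of TFAP2A-positive cells at D4, and 9.63% and 2.40% at D6. Without those cells in either group, the genes past the fold at D4 numbered 6 on the high side and 32 on the low side, of which 4 and 26 were among the 8 and 47. CAV1 then had a log2 ratio of -0.10 at D4. TAGLN had -0.67 at D4 and -0.11 at D6, which the choice of cells by TAGLN itself fixes in part. LINC00458 had -1.55 and -2.98, HESX1 -1.88 and -2.14, and DUSP6 -1.17 and -2.86. TAGLN2 was at -0.96 and AC064802.1 at -0.65 at D4, so that both lost the call given above for that day, as CAV1 did. ID1 was at 0.75 and 1.48, ID3 at 0.34 and 1.03 and PCAT14 at 1.93 and 3.03.

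Other genes of the NODAL pathway were not low at D6. TDGF1, the NODAL co-receptor gene, had log2 ratios of -0.13 [-0.38, 0.10] at D4 and 0.56 [0.46, 0.66] at D6, and SKIL, a SMAD corepressor and target gene, of -0.11 [-0.36, 0.12] and 0.56 [0.47, 0.64]. The 7 genes of the list measured at D4 had a median of -0.11 with LEFTY1 and LEFTY2 past the fold, and the 5 measured at D6 a median of 0.43 with none past it. NODAL itself had 0 UMIs in TFAP2A-positive cells of D4, under 3.40 CPM, beside 7.38 CPM in TFAP2A 0 cells, and 5.02 CPM from 18 UMIs beside 3.02 CPM at D6.

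Pluripotency genes beyond those of the rule stood mostly at like levels in the groups. Both groups were chosen for POU5F1 and SOX2, so cells that had lost these were left out in advance. Whether TFAP2A-positive cells retain pluripotency genes was therefore not tested. Of 28 in the list, 24 were measured on each day, and the median log2 ratios were -0.01 and -0.05. At D4 none was past the fold and at D6 only OTX2 was, which reached the filter there only through other cells. OTX2, a homeobox factor of primed epiblast and anterior identity, was at 58.9 CPM and 54.3 CPM at D4, with a log2 ratio of 0.13 [-0.31, 0.51], and at 16.5 CPM [12.5, 21.2] and 46.4 CPM at D6, with -1.48 [-1.89, -1.12]. LIN28A, an RNA-binding protein gene of pluripotent cells, had 0.27 [0.11, 0.41] and 0.30 [0.23, 0.38], DNMT3B, the de novo methyltransferase gene, -0.07 [-0.25, 0.09] and -0.07 [-0.15, 0.02], and NANOG -0.73 [-1.34, -0.23] and -0.17 [-0.39, 0.02]. PODXL, a surface sialomucin gene, was at 0.64 [0.55, 0.72] and SFRP2, a WNT antagonist gene, at -0.76 [-0.85, -0.67] at D6. SFRP1, the related antagonist, was level at D4, at 432 and 426 CPM, and lower at D6, at 144 CPM and 324 CPM, with a log2 ratio of -1.17 [-1.30, -1.05].

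**Figure D3:**
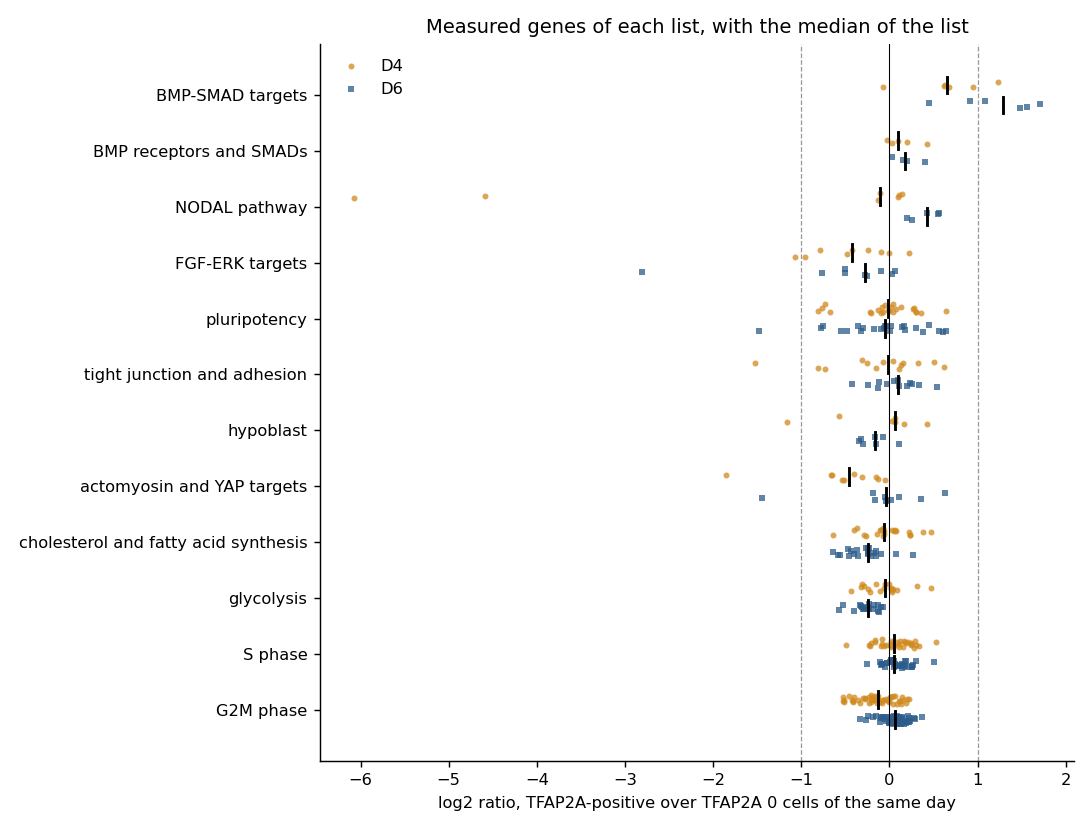
Log2 ratio of TFAP2A-positive over TFAP2A 0 cells (horizontal axis) for each measured gene of 12 lists (vertical axis), with D4 as circles, D6 as squares, black bars at the median of a list and dashed lines at 1 and -1. BMP-SMAD targets have medians of 0.65 and 1.28, pluripotency genes of -0.01 and -0.05, and at D6 all 19 glycolysis genes and 19 of 21 cholesterol and fatty acid synthesis genes sit below 0, with medians of -0.24 and -0.25.

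Markers of other lineages had few measured genes, and several lists differed in their sums. For hypoblast, 21 genes were listed besides FN1, and the 7 measured on each day had medians of 0.06 and -0.16. The summed level of all 21 was 1305 CPM and 1309 CPM at D4 and 1486 CPM and 1457 CPM at D6, most of it from APOE, the apolipoprotein E gene, at 999.8 and 1182 CPM. The factor genes GATA6 and GATA4 were near 0. GATA6 had 0 UMIs at D4 and 5 at D6, beside 125 and 303 CPM in FN1-high cells, and GATA4 had 1 and 3 UMIs. SOX17, an endoderm factor gene given with the germ cell genes below, was detected on both days. Its level was above that of TFAP2A 0 cells at D4 and below it at D6. All these levels were under 20 CPM and no counting interval is given for them, so no direction is drawn from them. PCAT14, MSX2, BAMBI and COCH were high in FN1-high cells as well, with MSX2 at 55.8 and 97.2 CPM and BAMBI at 159 and 242 CPM there, so these genes are not particular to TFAP2A-positive cells. APOA1, the apolipoprotein gene that tops hypoblast RNA, was at 9.06 CPM and 21.5 CPM at D4 and at 80.3 CPM and 89.9 CPM at D6. Trophoblast genes were at 0 UMIs for 15 of the 19 listed on each day, and the list summed to 51.0 CPM in both groups at D4 and to 56.1 CPM and 43.5 CPM at D6, a log2 ratio of 0.37 [0.15, 0.57], with TEAD4 and TFAP2C as its most abundant genes. TFAP2C alone was at 26.2 CPM and 7.69 CPM at D6. The only measured gene of the list, TEAD4, had log2 ratios of -0.53 at D4 and -0.46 at D6. The half-widths of its counting intervals were 0.63 and 0.35, so the ratio of D4 was within counting error.

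For primitive streak, 17 genes summed to 24.9 CPM and 44.9 CPM at D4 and to 41.3 CPM and 36.5 CPM at D6, with log2 ratios of -0.85 [-1.53, -0.25] and 0.18 [-0.07, 0.42], and none was measured. EOMES was the most abundant at D4, at 5.66 CPM, and FGF4 at D6, at 11.4 CPM. Mesoderm genes summed to 13.6 and 21.9 CPM at D4 and to 23.2 and 27.9 CPM at D6, with KDR, the VEGF receptor gene, at 5.86 and 11.9 CPM at D6. Primordial germ cell genes summed to 83.8 and 74.7 CPM at D4 and to 111 and 83.9 CPM at D6, a log2 ratio of 0.41 [0.26, 0.55] at D6, the most abundant being PDPN, a surface glycoprotein gene, at 36.2 and 53.6 CPM, and SOX17, an endoderm and germ cell factor gene, was at 15.9 CPM and 11.2 CPM at D4 and at 9.76 CPM and 14.2 CPM at D6. The neural ectoderm list summed to 89.4 and 109 CPM at D4 and to 34.3 and 90.8 CPM at D6, a log2 ratio of -1.40 [-1.67, -1.15] at D6. Its 2 measured genes were HESX1 and OTX2, and PAX6 and SOX1 had 0 UMIs on both days. Naive pluripotency genes summed to 34.0 and 26.4 CPM at D4 and to 67.5 and 31.6 CPM at D6, a log2 ratio of 1.09 [0.90, 1.29] at D6, with TFAP2C the most abundant on both days. The anterior visceral endoderm list, which holds LEFTY1, LEFTY2 and OTX2, had medians of -2.65 over 4 measured genes at D4 and -0.90 over 2 at D6, and its sums had log2 ratios of -1.49 [-1.80, -1.19] and -0.75 [-0.93, -0.58].

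Metabolic genes were slightly lower at D6. All 19 measured glycolysis genes had a log2 ratio below 0, with a median of -0.24, and 19 of 21 measured cholesterol and fatty acid synthesis genes did, with a median of -0.25, although none of them was past the fold. PGK1, which codes for phosphoglycerate kinase, had -0.53 [-0.58, -0.48]. At D4 the medians were -0.05 and -0.07. Mitochondrially encoded genes had medians of 0.07 at D4 and -0.48 at D6, and their share of all UMIs was 4.09% and 3.94% at D4 and 1.77% and 2.68% at D6. Leaving mitochondrial genes out of the totals moved the ratios of D6 by one common amount, and the median of all measured genes went from 0.0052 to -0.0081. Ribosomal protein genes took 23.0% and 22.5% of UMIs at D4 and 25.1% and 24.3% at D6, with medians of 0.03 and 0.05.

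Cell cycle lists stood near the median of all genes. S phase genes had medians of 0.06 on both days over 35 and 34 measured genes, and G2M genes had -0.13 and 0.07 over 49, with none past the fold. Tight junction and adhesion genes had -0.02 and 0.10, with CLDN3 past the fold on the low side at D4 and CDH1, the gene of E-cadherin, at 0.62 [0.20, 0.98] and 0.33 [0.18, 0.47]. Actomyosin and YAP target genes had -0.46 at D4, where all 10 measured genes were lower, and -0.04 at D6, with TAGLN past the fold on both days. Without LEFTY and TAGLN cells the medians were -0.0486 and 0.12. Retinoic acid genes had 0.08 and -0.01, and CYP26A1, which codes for the enzyme that degrades retinoic acid, was past the fold at D6, at 32.1 CPM and 79.5 CPM. Stress and immediate early genes had -0.18 and 0.23, with JUN past the fold on the low side at D4 (-1.24 [-1.98, -0.64]). Among WNT targets only CCND1, given above, was measured.

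At D6 the levels followed the TFAP2A count, including at the threshold. These values describe the classes that the rule separates. The 203 cells of D4 and 294 cells of D6 with 1 TFAP2A UMI, just outside, had PCAT14 at 76.7 and 150 CPM, and the 42 and 130 cells with 2 UMIs, just inside, had it at 128 and 257 CPM. With 3 or more UMIs, PCAT14 was at 166 and 324 CPM. ID1 at D6 was at 853, 1778, 2330 and 2533 CPM in cells with 0, 1, 2 and 3 or more TFAP2A UMIs and no later amnion gene. LINC00458 at D6 was at 570, 179, 108 and 49.8 CPM, and DUSP6 at 63.8, 27.9, 11.1 and 6.71 CPM. At D4, ID1 was at 2073 CPM with 2 UMIs and 1609 CPM in the 14 cells with 3 or more, so the order did not hold there. Cells with 1 UMI were thus closer to TFAP2A-positive cells than to TFAP2A 0 cells for ID1 and LINC00458 at D6.

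**Figure D4:**
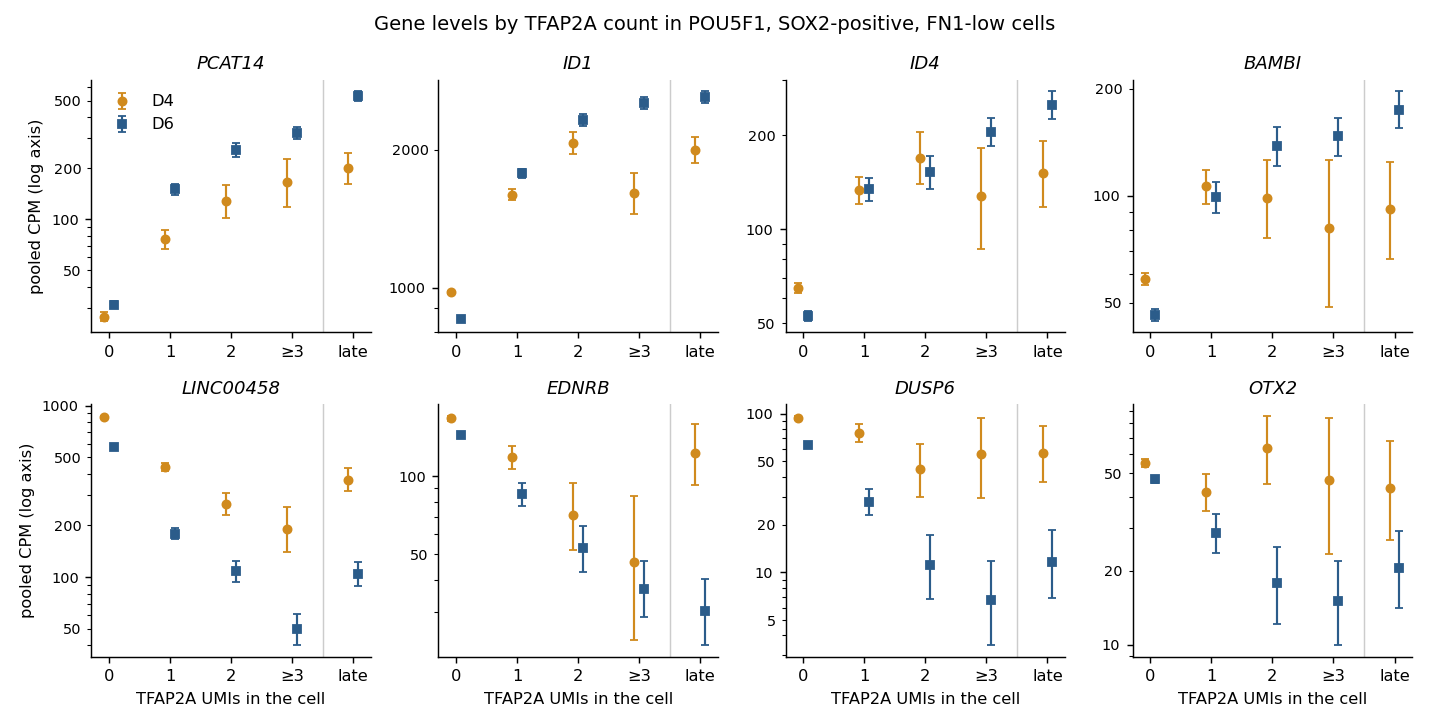
Pooled level in CPM (vertical axis, log scale) of 8 genes in cells with 0, 1, 2 and 3 or more TFAP2A UMIs without a later amnion gene, and in late-gene cells (horizontal axis), at D4 (circles) and D6 (squares), with bars for the 95% Poisson interval. At D6, PCAT14 goes from 31.4 to 324 CPM and LINC00458 from 570 to 49.8 CPM over the 4 classes.

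TFAP2A-positive cells were not uniform. PCAT14 had a UMI in 38 of 56 cells at D4 and in 212 of 250 at D6. At D6 the cells with PCAT14 had BAMBI at 153 CPM and those without at 84.9 CPM, with a log2 ratio of 0.83 [0.40, 1.32], MSX2 at 42.2 and 18.9 CPM, and ID3 at 1378 and 952 CPM. SFRP1 was at 116 and 306 CPM and CYP26A1 at 25.5 and 69.8 CPM, so the 38 cells of D6 without PCAT14 were nearer to TFAP2A 0 cells for these genes. At D4 the intervals of the ratios of BAMBI, MSX2 and ID3 between cells with and without PCAT14 spanned 0, at 0.22 [-0.48, 1.02], -0.15 [-1.90, 2.09] and -0.03 [-0.20, 0.15]. CLDN10 was lower in the cells of D4 with PCAT14, at 58.1 CPM and 117 CPM, a log2 ratio of -1.02 [-1.75, -0.27], and -0.86 [-1.62, -0.06] without the 1 cell with most CLDN10 UMIs. At D6 it was at 91.3 CPM and 60.3 CPM, a log2 ratio of 0.58 [0.07, 1.17] that rested on the 1 cell with 58 CLDN10 UMIs, since it was 0.25 [-0.27, 0.85] without that cell. At D4 the 38 cells with PCAT14 had LINC00458 at 168 CPM and the 18 without it at 432 CPM, a log2 ratio of -1.36 [-1.76, -0.97], while ID1 was at 1909 and 2045 CPM with an interval of the ratio that spanned 0.

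Set against late-gene cells, TFAP2A-positive cells differed in few measured genes at D6. Of 6043 genes, 7 (0.116%) were past the fold on the high side and 3 (0.0496%) on the low side. At D4, with 25 late-gene cells, 96 genes (1.62%) and 66 genes (1.11%) were, and counting error is large there. The 7 higher genes of D6, named after their values were seen, were PODXL2, FEZ1, HESX1, ANOS1, LNCPRESS2, ZIC5 and AC003975.1. Each was under 20 CPM in late-gene cells, where they had between 4 and 28 UMIs. ZIC5, a zinc finger transcription factor gene, was at 27.9 CPM beside 12.3 CPM, with a log2 ratio of 1.16 [0.47, 1.98], and ANOS1, which codes for the matrix protein anosmin, was at 37.1 CPM beside 16.8 CPM, with 1.12 [0.53, 1.81]. The interval of HESX1 spanned 0, at 1.11 [-0.31, 3.25]. The 3 lower genes of D6, also named after their values were seen, were CLDN10 at 86.8 CPM beside 380 CPM in late-gene cells, CST1 at 49.4 CPM beside 167 CPM, and APOA1 at 80.3 CPM beside 174 CPM. CST1 and APOA1 were far higher in FN1-high cells, at 6948 and 12485 CPM at D6, and the part of RNA from such cells was not tested. CLDN10 in late-gene cells came from few of them, since the median cell had 60.4 CPM and the highest 4428 CPM. PCAT14 was lower in TFAP2A-positive cells than in late-gene cells, at 291 beside 531 CPM at D6 with a log2 ratio of -0.87 [-1.003, -0.737], and so were ID4 (-0.49 [-0.68, -0.31]), MSX2 (-0.72 [-1.10, -0.33]), TFAP2C (-0.83 [-1.28, -0.36]) and BMP4 (-1.08 [-1.60, -0.56]). ID1 and ID3 were nearly level, at -0.10 [-0.15, -0.05] and -0.01 [-0.08, 0.07]. The 24 measured pluripotency genes had a median log2 ratio over late-gene cells of 0.23 at D6, beside 0.01 for all measured genes, and of -0.17 at D4, beside -0.0068, and none was past the fold.

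For some genes named above for their ratios, the levels of the 2 days were set against each other within each group. Since the day and the library cannot be told apart only the values are given. Whether the groups differed in this was not tested. The log2 ratio of D6 over D4 was 1.07 [0.80, 1.36] for PCAT14 in TFAP2A-positive cells and 0.20 [0.10, 0.29] in TFAP2A 0 cells. For ID1 it was 0.32 [0.24, 0.39] and -0.22 [-0.24, -0.20], and for BAMBI 0.59 [0.26, 0.95] and -0.34 [-0.41, -0.27]. On the low side, DUSP6 had -2.41 [-3.12, -1.72] and -0.56 [-0.62, -0.50], OTX2 -1.84 [-2.40, -1.27] and -0.23 [-0.30, -0.15], and SFRP1 -1.59 [-1.78, -1.40] and -0.40 [-0.42, -0.37]. LEFTY1 was at 10.5 CPM at D6 and 114 CPM at D4 in TFAP2A 0 cells, and LEFTY2 at 2.79 and 40.8 CPM, and both were near 0 in TFAP2A-positive cells on both days.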

How the data were processed

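The authors deposited, for each of 2 libraries (D4 and D6), UMI counts of 36601 genes per cell, not normalized, made with cellranger 6.0.1 per the file headers. The submitters' processing notes name hg38, Seurat 4.0.1 and R 4.0.3. The 7 bisulfite libraries were not analysed here. Cells were filtered and grouped by the stated UMI limits in Python 3.11.15 with numpy 2.4.6, scipy 1.17.1 and pandas 2.3.3. Levels were pooled CPM with exact Poisson intervals. Log2 ratios had 0.5 UMI added to both sums and exact conditional binomial intervals. The method was tested on simulated Poisson counts, which the intervals assume, so that test did not cover spread between cells. No doublet caller was run; the upper UMI limit stood in for one. Members and gene lists were chosen with earlier results of these data known, so no list gives independent support. Named genes were listed genes and, by the interval bound nearest 0, the 10 highest and 10 lowest on both days and on each day, of genes at 20 CPM or more and without genes of the rule. Listed genes under that filter, such as MSX2, TFAP2C and BMP4, were named after their values were seen. The gene annotation is not given in the sources used here. The alternatives, which for doublets were cells with FN1 at 0 or at most 20000 UMIs, changed the cells, the gate, depth, the measure of level and the filter on genes. Some results are not reported here. Promoter windows are from RefSeq, GRCh38.p14.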

Additional observations from a re-analysis of the deposited data

Results flagged for a closer look

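For 7 listed genes the counting intervals of the log2 ratio between TFAP2A-positive and TFAP2A 0 cells lay on opposite sides of 0 at D4 and D6. Of the 5776 genes measured on both days, 58.9% had the same sign on both days, without regard to intervals. The share of all measured genes with such opposite intervals is not given here, so the 7 are not a result about the lists. The difference between the days was not tested, as each day is 1 library. The ratios were -0.23 at D4 and 0.14 at D6 for the keratin gene KRT8, -0.65 and 0.35 for CCN2, a YAP target gene, and -0.31 and 0.63 for TPM1, the tropomyosin 1 gene. For SQLE, the squalene epoxidase gene of cholesterol synthesis, they were 0.47 and -0.37. The G2M genes UBE2C and CENPF had -0.35 and 0.23, and -0.21 and 0.10, and the immediate early gene FOS had -0.37 and 0.28. None was past the fold on either day.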

How the results depend on the processing

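No named gene past the fold changed sign under any alternative run. Over all named genes and alternatives, 365 ratios stayed within the counting interval at D4 and 50 did not, and 361 and 69 at D6. Without filters on low levels, 10014 genes at D4 and 7185 at D6 were past the fold on the high side and 835 and 981 on the low side, since the 0.5 UMI added decides the ratio of a gene with few counts. With a filter of 10 CPM the counts were 19 and 126 at D4 and 23 and 37 at D6, and with 50 CPM they were 1 and 10, and 5 and 10. With a log2 ratio of 0.5 as the limit they were 184 and 289, and 88 and 110. With every cell thinned to 3430 UMIs they were 112 and 261 at D4 and 41 on the low side at D6. With TFAP2A at 3 or more UMIs, which left 14 and 120 cells, they were 73 and 207 at D4 and 32 on the low side at D6, and with at least 1 UMI they were 3 and 9 at D4 and 8 on the low side at D6. With later amnion genes allowed, 23 genes were on the low side at D4. With cells of up to 20000 UMIs, 15 and 62 genes were past the fold at D4, of which 8 and 33 were among the main calls. At D6 they were 13 and 21, of which 12 and 19 were. With FN1 at 0, 9 and 49 genes were past the fold at D4, of which 6 and 34 were among the main calls. At D6 they were 13 and 24, of which 12 and 21 were. Thinning before the gate left 4 and 14 TFAP2A-positive cells.

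Medians of lists that moved were those of amnion and non-neural ectoderm genes (thinned, -0.0315 at D4 and 0.25 at D6; 3 or more TFAP2A UMIs, -0.0401 at D4; later amnion genes allowed, 0.38 at D6), epiblast long noncoding RNAs at D4 (thinned, -0.91), NODAL pathway genes at D6 (thinned, 0.62), BMP-SMAD targets at D6 (at least 1 TFAP2A UMI, 1.08) and mitochondrially encoded genes at D6 (-0.40 with at least 1 TFAP2A UMI and -0.41 with later amnion genes allowed). The alternatives without LEFTY and TAGLN cells and without the cell with most CLDN10 UMIs were chosen after seeing the data. The former moved the median of actomyosin and YAP targets to -0.0486 at D4 and 0.12 at D6. LEFTY1 and LEFTY2 have no value there. The causes were not tested, beyond fewer cells and UMIs where these were removed. The 56 cells of D4 and the lack of replicate libraries limit precision. No paired analysis was possible because each day is 1 library and no test was run.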
